A study of Mus musculus with 24 samples.

Results

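Synaptic vesicle and release genes were examined as a group of 46 genes in chromatin accessibility data from mouse striatal neurons. Their peaks were all those in the deposited count table annotated to 1 of the 46 genes. The rule uses names and no measured value, but the genes were listed with earlier results of these data known. This gave 778 of 147020 peaks, of which 777 of 146155 passed the filter on low counts. All 46 genes had at least 1 peak, from 1 peak for Vamp1 to 76 for Erc2, with a median of 12.5 peaks a gene. Symbols follow the closest annotated start, and a peak may act on a different gene.

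Accessibility was measured by ATAC-seq, in which a transposase cuts and tags open DNA, in NeuN-positive nuclei sorted from frozen striata. The mice were 12 months old on a C57BL/6 background, with 6 animals in each of 4 genotypes, 3 female and 3 male. WT animals were wild type. Q140 animals were heterozygous for a knock-in Htt allele with an expanded CAG repeat, Msh3KO animals were Msh3-/-, and Q140_Msh3KO animals were heterozygous for the Q140 allele and Msh3-/-. Both targeted alleles are present in every cell of the animal, so a peak in sorted neurons need not respond to the allele in those neurons only. NeuN marks most kinds of neuron, so each library pools projection neurons, interneurons and any neurons of neighbouring tissue in the dissection. Fewer nuclei of a type and less accessibility per nucleus cannot be told apart in such bulk samples. Libraries are named by genotype, sex and number, such as Q140 F2.

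Neurons store transmitter in synaptic vesicles and release it when calcium enters the terminal. SNARE proteins on the vesicle (synaptobrevins, encoded by Vamp1 and Vamp2) and on the plasma membrane (syntaxin, Stx1a, and Snap25) zip together to fuse membranes. Some synaptotagmins of the vesicle sense calcium, and complexins hold and then assist the fusion. Scaffolds of the active zone (RIMs, Bassoon, Piccolo and ELKS) place vesicles beside calcium channels, and priming factors (Munc13s, encoded by the Unc13 genes, and CAPS, encoded by Cadps) make them ready to fuse. In the striatum, projection neurons release GABA from such terminals, both locally and in the basal ganglia output nuclei.

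Total counts in peaks ran from 4372251 to 11736557 per library, and the vesicle gene peaks took 0.415% to 0.516% of them. A tested vesicle gene peak held a median of 27 counts per library, the same as over all tested peaks. CPM, the usual count unit scaled for depth, was computed on TMM library sizes. The vesicle gene peaks had a median level of 3.34 CPM and a median width of 391 bases, against 3.425 CPM and 397 bases for all peaks, and lay a median of 43.8 kb from a start, against 28.8 kb. Promoter peaks of striatal projection neuron markers (9 of 11 with a peak) summed to 254.4 to 361.9 CPM per library in WT, 237.7 to 305.3 in Q140, 236.7 to 320.7 in Msh3KO and 225.8 to 286.9 in Q140_Msh3KO, while those of microglia, oligodendrocyte precursors and endothelial cells and pericytes each stayed at or below 7.307. Astrocyte markers summed to 6.449 to 12.48 CPM and oligodendrocyte markers to 14.17 to 27.29. These sums cover unlike numbers of genes. Per gene with a peak, the mean over all libraries was 31.09 CPM for projection neurons, 4.399 for astrocytes and 3.925 for oligodendrocytes (5 genes). It was 3.491 for microglia, 1.847 for oligodendrocyte precursors (2 genes), 2.78 for endothelial cells and pericytes (2 genes) and 3.793 for striatal interneurons. No marker gene with a promoter peak was at 0 in any library, and 1 of 7 microglial and 2 of 8 astrocyte markers had such a peak. Cortical glutamatergic markers (4 of 8 with a peak) summed to 22.99 to 28.1 CPM in Q140 and 17.77 to 24.12 in WT, and striatal interneuron markers (4 of 9) to 13.16 to 21.37 and 11.86 to 18.46. The part of these neuron markers in the results below was not tested. Q140 F2, labelled female, had 1.47% of its counts on X, below the other females (1.72% to 1.94%) and also below the males (1.49% to 1.59%). Q140 F2 also had the lowest count on Y (4586). Y counts did not separate the labelled sexes, with 14407 in WT F1 and 7388 in Q140_Msh3KO M2. The sex label of Q140 F2 is in doubt by its X share only, and it was kept as labelled in the sex term. The top 10 peaks of Q140_Msh3KO M1 held 12.66% of its counts, more than in any other library. Counts of called vesicle gene peaks below are also given without both of these libraries.

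All 46 genes had an open peak within 1 kb of an annotated start in WT neurons. Taking the highest such peak of each gene per kb of peak width, WT levels ran from 5.298 CPM per kb at Syt17 to 36.62 at Rab3a, with a median of 17.27. Next to Rab3a, the vesicle GTPase, stood Pclo (Piccolo) at 34.1, Syt11 at 31.9, Stxbp5l (a tomosyn) at 30.1 and Unc13a (Munc13-1) at 29.2. Syt1, the fast calcium sensor of most forebrain synapses, had 27.9 CPM per kb. At the low end, Syt13 had 6.49, Cplx3 6.56, Cadps2 7.27 and Syt9 8.49. These are levels of accessibility at the start, not of the transcripts.

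The sequence before the start is shown for 6 genes whose distant peaks changed in Q140 while the peak at the start did not, so that both can be read side by side. RefSeq windows on GRCm38.p6 were found for 35 of the 46 genes, and only the 250 bases before the start are used. Capitals mark matches, on either strand, to 4 motifs, which do not overlap each other in the sequences shown. These were the GC box with the letters GGGCGG, the CCAAT box by its own letters, the cAMP response element TGACGTCA and the TATA box with the letters TATAAA. A match is a description of the letters and not a bound site.
Sv2c (chr13:96132578-96132827, - strand): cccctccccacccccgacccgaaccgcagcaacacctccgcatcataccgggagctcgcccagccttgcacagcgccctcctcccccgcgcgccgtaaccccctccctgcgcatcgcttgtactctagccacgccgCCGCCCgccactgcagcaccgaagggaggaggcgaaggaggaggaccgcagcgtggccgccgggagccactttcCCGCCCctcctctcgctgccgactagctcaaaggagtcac
Sv2b (chr7:75309263-75309512, - strand): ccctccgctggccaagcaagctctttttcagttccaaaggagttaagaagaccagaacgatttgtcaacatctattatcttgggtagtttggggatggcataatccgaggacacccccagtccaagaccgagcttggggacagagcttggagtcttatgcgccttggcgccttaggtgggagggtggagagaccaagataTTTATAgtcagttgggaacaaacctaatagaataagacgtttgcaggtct
Synpr (chr14:13284530-13284779, + strand): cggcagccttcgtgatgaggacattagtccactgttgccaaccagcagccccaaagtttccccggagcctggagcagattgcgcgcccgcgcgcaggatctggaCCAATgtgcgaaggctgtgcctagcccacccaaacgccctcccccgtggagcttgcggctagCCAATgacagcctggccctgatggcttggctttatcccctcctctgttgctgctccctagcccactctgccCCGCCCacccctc
Syn1 (chrX:20920919-20921168, - strand): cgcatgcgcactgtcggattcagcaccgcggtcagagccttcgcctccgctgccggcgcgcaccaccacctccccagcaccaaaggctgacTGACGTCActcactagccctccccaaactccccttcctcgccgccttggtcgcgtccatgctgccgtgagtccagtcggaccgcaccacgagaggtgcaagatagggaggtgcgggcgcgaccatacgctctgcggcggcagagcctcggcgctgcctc
Cplx1 (chr5:108550028-108550277, - strand): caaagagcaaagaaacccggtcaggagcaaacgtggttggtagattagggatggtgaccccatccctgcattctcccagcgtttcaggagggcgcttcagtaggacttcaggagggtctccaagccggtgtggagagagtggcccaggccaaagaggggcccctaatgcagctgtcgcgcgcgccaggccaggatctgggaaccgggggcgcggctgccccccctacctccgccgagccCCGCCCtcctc
Rims1 (chr1:22806159-22806408, - strand): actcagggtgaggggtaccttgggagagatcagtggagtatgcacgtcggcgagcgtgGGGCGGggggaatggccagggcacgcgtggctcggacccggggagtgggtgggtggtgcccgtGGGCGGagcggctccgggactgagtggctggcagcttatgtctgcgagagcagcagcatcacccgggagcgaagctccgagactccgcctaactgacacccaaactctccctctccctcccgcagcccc
The Sv2c and Rims1 windows each held 2 GC boxes, that of Synpr 1 GC box and 2 CCAAT boxes, that of Syn1 1 cAMP response element, that of Cplx1 1 GC box and that of Sv2b a TATA box. Over the 47 windows of vesicle genes, 63.8% held a GC box, against 32.7% of all 32851 windows. A CCAAT box was in 31.9% against 33.8%, a cAMP response element in 2.13% against 1.55% and a TATA box in 4.26% against 12.4%. Their median GC content was 62.0%, against 52.4%, with a median of 14 CpG, against 6. The GC box is itself made of G and C, so its share and the GC content are not separate facts.

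The first comparison, Q140 vs WT, addresses the effect of the expanded Htt allele where Msh3 is present. Of the 777 tested vesicle gene peaks, 28 rose and 59 fell in Q140 (edgeR quasi-likelihood test, Benjamini-Hochberg adjusted p under 0.05), which is 11.2%, near the background of 10.3% of all peaks. The 28 higher peaks were 3.6%, against 4.2% of all peaks, and the 59 lower ones 7.59%, against 6.11%. The median log2 fold change was -0.029 over the vesicle gene peaks and -0.007 over all peaks. At least 1 peak changed at 32 of the 46 genes, with lower peaks only at 16 genes, peaks of both directions at 15 and higher peaks only at Snap25. All animals of the 2 genotypes were separated at 17 higher and 34 lower vesicle gene peaks, or 2.19% and 4.38%, against a background of 2.07% and 3%. Without WT F3 the counts were 32 higher and 39 lower, and without both Q140 F2 and Q140_Msh3KO M1 27 and 55. The plot of all peaks by gene shows the spread within each gene.

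**Figure D1:**
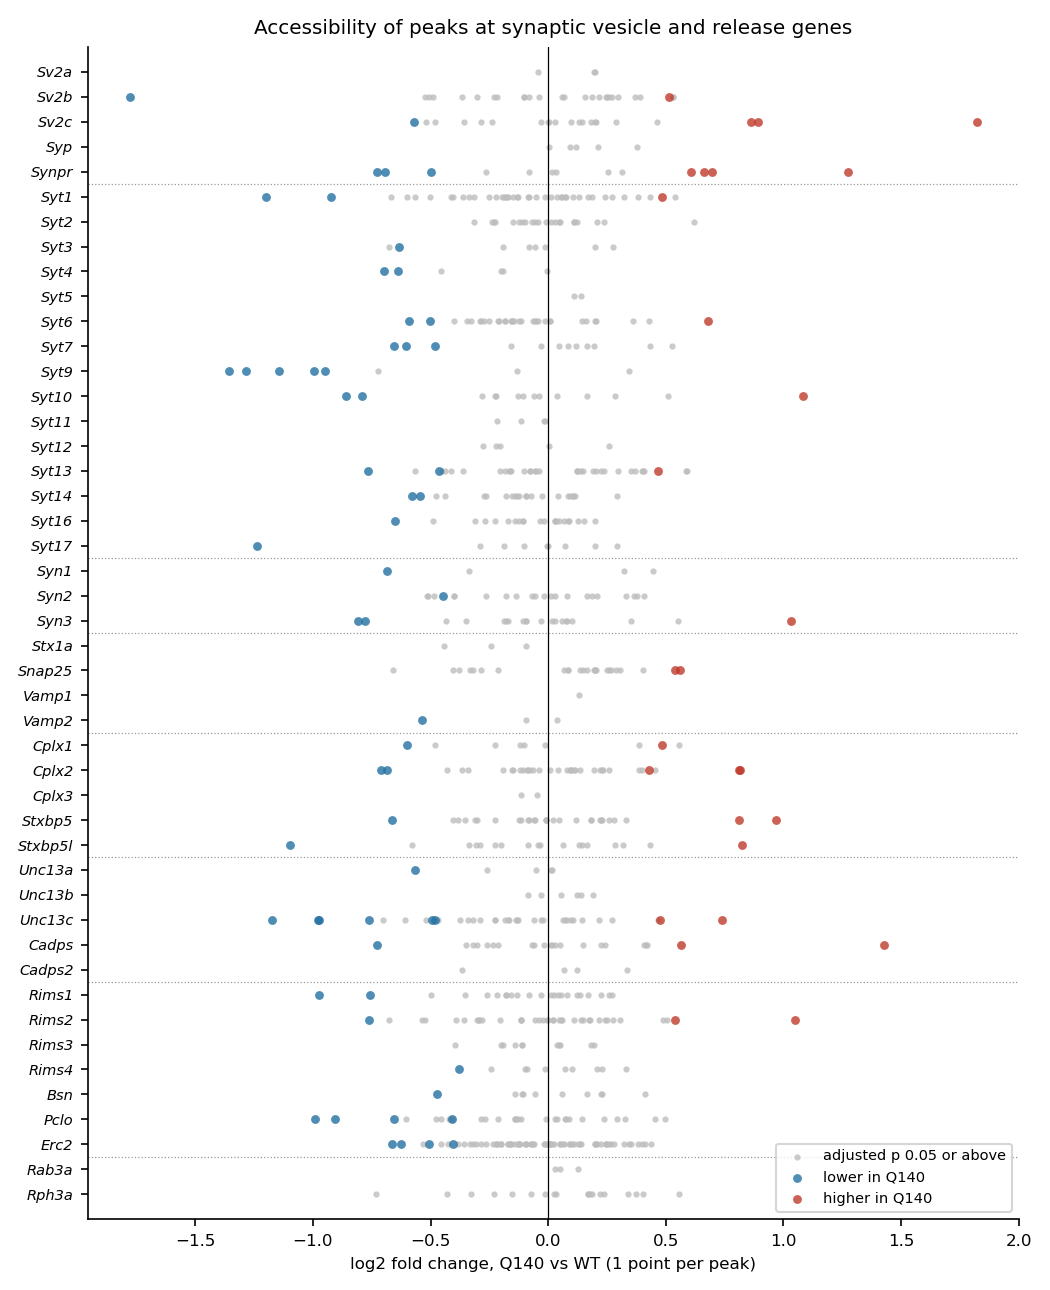
Log2 fold change in Q140 vs WT (x axis) of each tested vesicle gene peak, 1 point a peak, for the 46 genes (y axis, grouped by role with dotted lines). Red points rose (28), blue points fell (59) and grey points did not pass the test. Most genes with a coloured point also hold many grey ones, and Synpr, Unc13c and Cplx2 hold both colours.

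Vesicle membrane proteins had 69 tested peaks, of which 8 rose and 5 fell, with a median log2 fold change of 0.096. Together 18.8% changed, against 10.3% of all peaks. The largest change in either direction was at a peak annotated to a gene of the SV2 family, glycoproteins of the vesicle membrane. At Sv2c, the SV2 form found mainly in the basal ganglia, an intergenic peak 56.1 kb upstream (chromosome 13, 96188473 to 96188924, GRCm38 as for all positions) held 0.57, 1.58 and 2.47 CPM in WT and 4.35, 4.91 and 7.14 in Q140 (lowest, median and highest of 6 animals, as in all such triples below). The groups did not overlap. Its mean went from 1.54 ± 0.619 CPM (SD, n = 6) to 5.36 ± 1.17, a log2 rise of 1.82 ± 0.24 (± SE; adjusted p = 5.9e-07). A pair of peaks farther upstream at Sv2c, 63.5 and 88.4 kb from the start, rose by 0.89 ± 0.18 and 0.86 ± 0.15, while a peak 34.0 kb upstream fell by 0.57 ± 0.18 (lost in 9 of 24 fits without 1 library, adjusted p up to 0.155). The promoter peak of Sv2c held 33.9 ± 4.47 CPM in WT and 34.0 ± 3.26 in Q140.

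Sv2b had 1 higher and 1 lower peak among 27. A peak 16.7 kb upstream of Sv2b, inside an intron of 1500012K07Rik (chromosome 7, 75325739 to 75326219), held 3.96, 6.45 and 9.35 CPM in WT and 1.30, 1.71 and 3.19 in Q140. It fell by 1.78 ± 0.23 (adjusted p = 2e-06), and every Q140 animal lay below every WT animal. An intronic peak of Sv2b itself (75287128 to 75287679) rose by 0.51 ± 0.14 (adjusted p = 0.0102), from 6.08 ± 0.723 to 8.67 ± 1.81 CPM, with overlap. The promoter peak of Sv2b held 17.2 ± 3.55 CPM in WT and 17.9 ± 4.17 in Q140. Synpr, encoding synaptoporin, a vesicle protein related to synaptophysin, had 13 peaks, of which 4 rose and 3 fell (53.8%, against 10.3% of all peaks). The Synpr calls at 13415007, 13456732 and 13518724 were lost in 6, 3 and 2 of the 24 fits without 1 library. One of its introns held a rising peak 100.3 kb from the start (chromosome 14, 13554115 to 13554364) with 0.411, 0.983 and 1.18 CPM in WT and 1.74, 2.01 and 3.16 in Q140, again without overlap. A peak in a Synpr intron at 13416970 to 13417996 fell from 15.2 ± 2.96 to 9.12 ± 1.74 CPM, a log2 change of -0.73 ± 0.16. Neither Sv2a (3 peaks) nor Syp, encoding synaptophysin (5 peaks), had a peak that passed the test.

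Synaptotagmins, proteins of vesicles and other membranes of which only some sense calcium, had 245 tested peaks. Of these peaks 4 rose and 23 fell, with a median of -0.079. The changed share was 11%, near the 10.3% of all peaks. Syt9 stood out by number, since 5 of its 8 peaks fell and 0 rose (62.5% changed, against 10.3% of all peaks). Its protein is a fast calcium sensor used by some striatal and limbic neurons. The 5 peaks all lay in its introns, 25.9 to 74.0 kb from the start on chromosome 7, and none of the 5 overlapped between genotypes. Of all peaks, 3% were lower in Q140 without overlap. The peak at 107396313 to 107397097 held 5.13, 6.07 and 7.25 CPM in WT and 2.09, 3.17 and 4.13 in Q140, a log2 change of -0.99 ± 0.16 (adjusted p = 1.9e-05). The other four fell by 0.95 to 1.36, at 107416178, 107428398, 107440874 and 107444635. The peak over the Syt9 start held 12.8 ± 1.51 CPM in WT and 11.6 ± 1.42 in Q140, with a log2 fold change of -0.13 ± 0.12.

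Syt17, encoding an atypical synaptotagmin, had 1 lower peak among 9. That peak (chromosome 7, 118356599 to 118357054, intergenic) held 5.07, 6.31 and 7.75 CPM in WT and 1.77, 2.69 and 3.92 in Q140, and fell by 1.24 ± 0.18 (adjusted p = 5.4e-06). Syt10, whose protein acts in regulated secretion of growth factors in some neurons, had peaks of both directions. An intergenic peak 181.6 kb upstream (chromosome 15, 90023116 to 90023719) held 3.55, 5.25 and 7.30 CPM in WT and 8.62, 12.0 and 13.7 in Q140, and rose by 1.08 ± 0.16 (adjusted p = 4.4e-06). A pair of peaks beyond the other end of the gene, at 89744868 and 89754666, fell by 0.79 ± 0.18 and 0.86 ± 0.15. The animals overlapped between genotypes at the first of this pair and not at the second.

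Syt1 had 42 peaks, of which 1 rose and 2 fell. The lower intronic peak (chromosome 10, 108986884 to 108987397) went from 4.81 ± 1.16 to 2.53 ± 0.406 CPM, a log2 change of -0.92 ± 0.19 (adjusted p = 0.00058). Its promoter peak held 56.3 ± 6.44 CPM in WT and 53.3 ± 7.89 in Q140. Syt7, the slow, high-affinity calcium sensor of asynchronous release and facilitation, had 3 lower peaks among 12. The strongest of all changed vesicle gene peaks by level lay in its intron (chromosome 19, 10397597 to 10398863), with 66.8, 73.2 and 97.3 CPM in WT and 32.8, 48.2 and 61.8 in Q140, a fall of 0.65 ± 0.14 (adjusted p = 0.00107). Among the rest, Syt4 and Syt14 each had 2 lower peaks, Syt16 and Syt3 each 1, and Syt6 and Syt13 each 1 higher and 2 lower. The Syt3 peak was near the threshold (adjusted p = 0.032) and missed it in 8 alternative fits, with adjusted p up to 0.216 without WT F3 and 0.0568 without Q140 F2. No peak of Syt2 (22 peaks), Syt5, Syt11 or Syt12 passed.

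Synapsins tether vesicles in the reserve pool. Of their 46 peaks, 1 rose and 4 fell (10.9%, against 10.3% of all peaks). At Syn3 an intronic peak 5.5 kb from the start (chromosome 10, 86493247 to 86493507) gave 1.25, 2.04 and 2.83 CPM in WT and 3.07, 4.21 and 5.40 in Q140, a rise of 1.03 ± 0.21 (adjusted p = 0.00047) without overlap. Another pair of Syn3 peaks fell by 0.78 ± 0.21 and 0.81 ± 0.19. An intronic peak of the X-linked Syn1 (20915029 to 20915457) fell from 5.54 ± 1.39 to 3.37 ± 0.373 CPM, with a log2 change of -0.69 ± 0.16 and some overlap between the animals. A Syn2 peak fell by 0.45 ± 0.15 (adjusted p = 0.0499), a call lost in 19 of 24 fits without 1 library.

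SNARE genes had 32 tested peaks, 25 of them at Snap25, and 2 rose and 1 fell (9.38%, against 10.3% of all peaks). Both rising peaks were neighbours 33.4 and 34.7 kb upstream of Snap25 (chromosome 2). That at 136679621 to 136680424 held 10.1, 10.9 and 11.3 CPM in WT and 13.8, 15.5 and 19.5 in Q140, and rose by 0.56 ± 0.13 (adjusted p = 0.0017). That at 136678272 to 136679226 rose by 0.54 ± 0.13, and neither overlapped between genotypes. The Snap25 promoter peak held 30.6 ± 3.45 CPM in WT and 32.4 ± 4.17 in Q140. The falling peak lay 1.9 kb upstream of Vamp2 (chromosome 11, 69086297 to 69086922), with 18.0, 22.7 and 31.8 CPM in WT and 11.2, 15.5 and 20.7 in Q140, overlapping, and a log2 change of -0.54 ± 0.15 (adjusted p = 0.0177). It missed the threshold without any 1 of 6 libraries, with adjusted p of 0.0513 to 0.105, the last without WT F3. Stx1a and Vamp1 had no peak that passed.

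Complexins, which clamp and assist SNARE fusion, and tomosyns (Stxbp5 and Stxbp5l), which compete for SNARE proteins and hold release back, had 93 peaks, of which 7 rose and 5 fell. Together 12.9% changed, against 10.3% of all peaks. Cplx2 had 3 higher and 2 lower peaks among 35. Its higher peak 3.0 kb from a start (chromosome 13, 54368208 to 54368549) held 5.47, 6.43 and 7.70 CPM in WT and 9.62, 11.0 and 14.6 in Q140, and rose by 0.82 ± 0.15 (adjusted p = 0.00016) without overlap. Its lower pair, 39.4 and 49.6 kb upstream, fell by 0.71 ± 0.19 and 0.69 ± 0.18. At Stxbp5l a peak 40.6 kb upstream (chromosome 16, 37425383 to 37425746) fell by 1.10 ± 0.24 (adjusted p = 0.00114) and one 54.2 kb upstream rose by 0.82 ± 0.22. Stxbp5 had 2 higher peaks, at 0.81 ± 0.20 and 0.97 ± 0.30 (the second lost in 5 fits without 1 library), and 1 lower, at -0.66 ± 0.16. Cplx1 had 1 of each, and Cplx3, the complexin of ribbon and some cortical synapses, had none.

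Priming factors had 73 peaks, of which 4 rose and 8 fell (16.4%, against 10.3% of all peaks). Unc13c (Munc13-3) held 8 of these 12, 2 higher and 6 lower among 36 peaks (22.2%). Its peak of smallest p lay in an intron 388.0 kb from the start (chromosome 9, 73580901 to 73581269), with 2.64, 3.18 and 3.88 CPM in WT and 1.06, 1.40 and 1.83 in Q140, a fall of 1.18 ± 0.20 (adjusted p = 5.7e-05). Nearby and also intronic, the peak at 73570642 to 73571219 rose by 0.74 ± 0.21, from 3.30 ± 0.804 to 5.62 ± 0.942 CPM, so neighbouring peaks of this gene went opposite ways. At Cadps, whose protein primes dense-core and synaptic vesicles, 2 peaks rose and 1 fell among 22. An intergenic peak 214.5 kb upstream (chromosome 14, 13037344 to 13037752) held 1.14, 1.73 and 3.22 CPM in WT and 3.66, 4.91 and 6.10 in Q140, and rose by 1.43 ± 0.24 (adjusted p = 5.2e-05). Of its intronic peaks, that at 12657314 rose by 0.56 ± 0.14 and that at 12766862 fell by 0.73 ± 0.17. Unc13a, encoding the main Munc13 of forebrain synapses, had 1 lower intronic peak (chromosome 8, 71667606 to 71668369), at 20.6, 27.6 and 32.2 CPM in WT and 16.1, 18.1 and 20.3 in Q140, a fall of 0.57 ± 0.12 (adjusted p = 0.00073). Unc13b and Cadps2 had none.

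Active zone scaffolds had 197 peaks, of which 2 rose and 13 fell (7.61%, below the 10.3% of all peaks). Rims1 (RIM1, which links vesicles, Munc13 and calcium channels) had 2 lower peaks among 23. The first, in an intron 42.3 kb from the start (chromosome 1, 22763223 to 22764282), held 22.7, 26.0 and 30.7 CPM in WT and 10.3, 13.2 and 17.2 in Q140, a fall of 0.98 ± 0.14 (adjusted p = 4.1e-06) without overlap. The Rims1 promoter peak held 24.8 ± 3.35 CPM in WT and 29.1 ± 2.90 in Q140, with a log2 fold change of 0.23 ± 0.11 (adjusted p = 0.239). Pclo, the giant scaffold Piccolo, had 4 lower peaks among 29. Its intronic peak at chromosome 5, 14531649 to 14532286, held 9.87, 10.8 and 13.7 CPM in WT and 4.16, 5.73 and 6.75 in Q140, and fell by 0.99 ± 0.16 (adjusted p = 2.7e-05). Erc2 (ELKS2) had 4 lower peaks, all intronic, among 76, the first by p at -0.62 ± 0.14. Its calls at 27740070, 27975344 and 27849201 were lost in 19, 17 and 4 of the 24 fits without 1 library. The Pclo call at 14319716 was lost in 14 of them. Rims2 had 2 higher and 1 lower, the largest a rise of 1.05 ± 0.24 in an intron. Bsn (Bassoon) had 1 lower peak among 10, at -0.47 ± 0.12, which lies in the 3′ UTR of Dag1, and Rims4 had 1, at -0.38 ± 0.13, lost in 18 of the 24 fits without 1 library. Rims3 had none, and neither did Rab3a (3 peaks) or its effector Rph3a, encoding rabphilin (19 peaks).

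**Figure D2:**
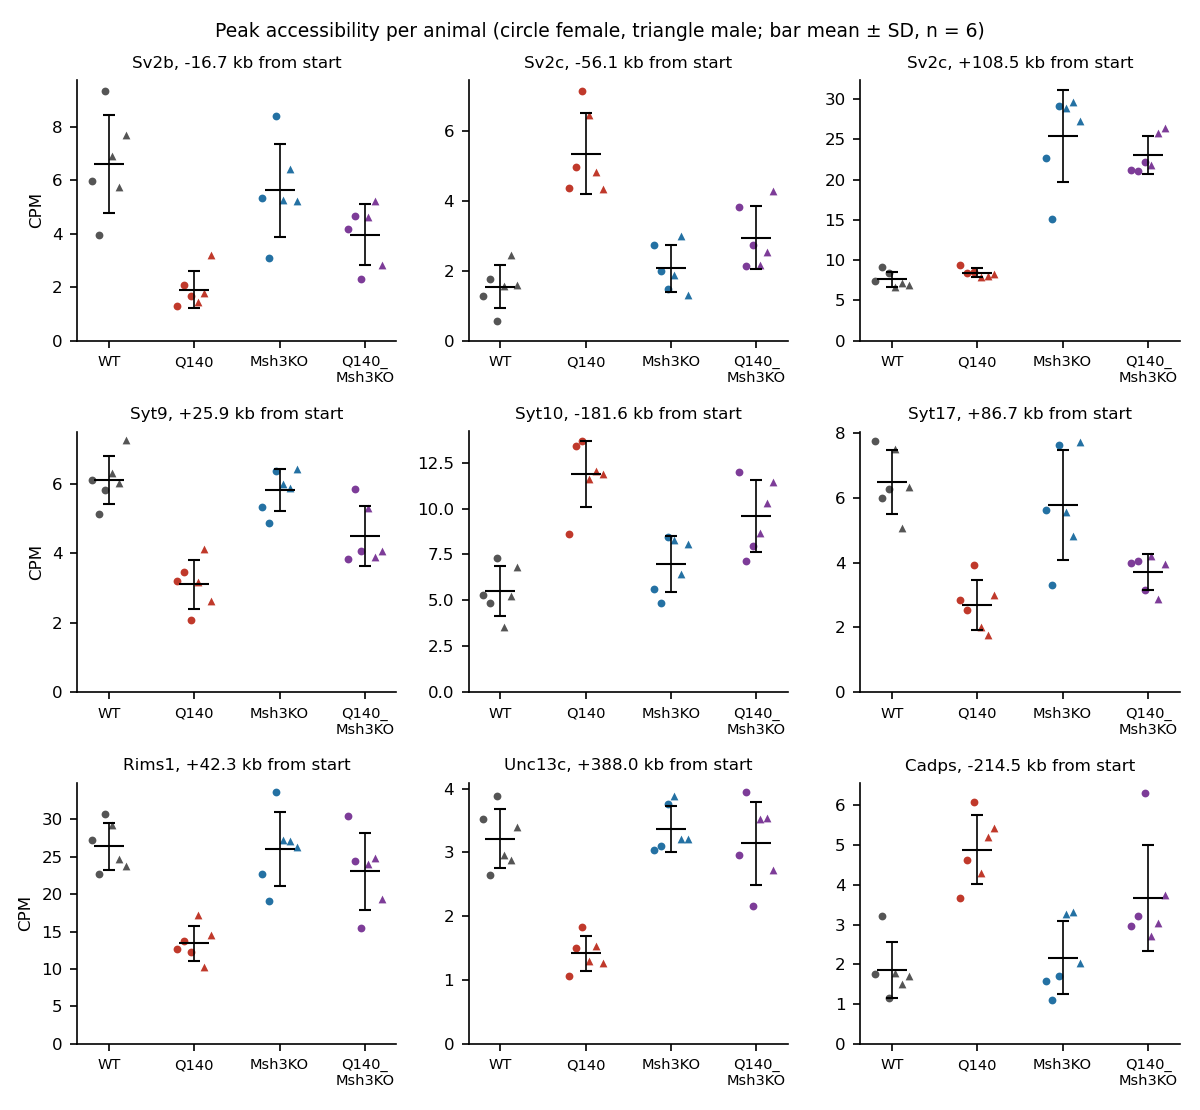
CPM (y axis, from 0) of 9 named peaks in each of 24 animals by genotype (x axis), circles for females and triangles for males, with the mean and SD of 6 animals as bars. At the Syt9, Rims1 and Unc13c peaks every Q140 animal lies below every WT animal, and at the Sv2c peak 108.5 kb into the gene both genotypes without Msh3 lie above both with it.

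Peaks at gene starts changed less often than distant ones over all peaks. Of 59 vesicle gene peaks within 1 kb of an annotated start, at 46 genes, 0 passed the test in Q140 vs WT with edgeR, 3 had an unadjusted p under 0.05 and 1 passed with DESeq2, against 3.33% called of all 16784 peaks at that distance, so a count of 0 among 59 is near the background. Between 1 and 10 kb, 3 of 81 rose and 9 fell (14.8% changed, against 9.94% of all peaks). Between 10 and 100 kb, 16 of 400 rose and 35 fell (12.8% against 10.5%), and beyond 100 kb 9 of 237 rose and 15 fell (10.1% against 13.8%). Of the 87 changed peaks, 50 lay inside their own gene, 35 between genes and 2 inside another gene. Of all 778 vesicle gene peaks, 549 were annotated to a transcript, 21 of them that of another gene, so the 50 are no excess inside own genes.

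By annotated class, 0 of 27 promoter peaks passed (2 at an unadjusted p under 0.05), where 3.33% of all promoter peaks did, while 15 of 476 intronic peaks rose and 36 fell, or 10.7% against 10.4% of all intronic peaks, and 13 of 229 intergenic ones rose and 22 fell, or 15.3% against 12.6%. Over the 46 highest start peaks, 1 a gene, the log2 fold change ran from -0.37 at Cadps2 to 0.34 at Erc2, with a median of 0.022, and was above 0 at 27. The Erc2 promoter peak (chromosome 14, 27622046 to 27622942) gave 13.8 ± 2.11 CPM in WT and 17.5 ± 0.944 in Q140, a log2 fold change of 0.34 ± 0.12 (adjusted p = 0.0633). It passed the test with DESeq2 (adjusted p = 0.0447), with scaling by total counts (0.0260), with a count minimum of 30 (0.0148) and in 9 fits without 1 library (0.0277 to 0.0478: WT F2, Msh3KO F1, F2, F3, M1 or M2, Q140_Msh3KO F1, F3 or M1). The Syn1 promoter peak (0.32 ± 0.13, adjusted p = 0.104) passed with scaling by total counts (0.0453) and with the minimum of 30 (0.0276).

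**Figure D3:**
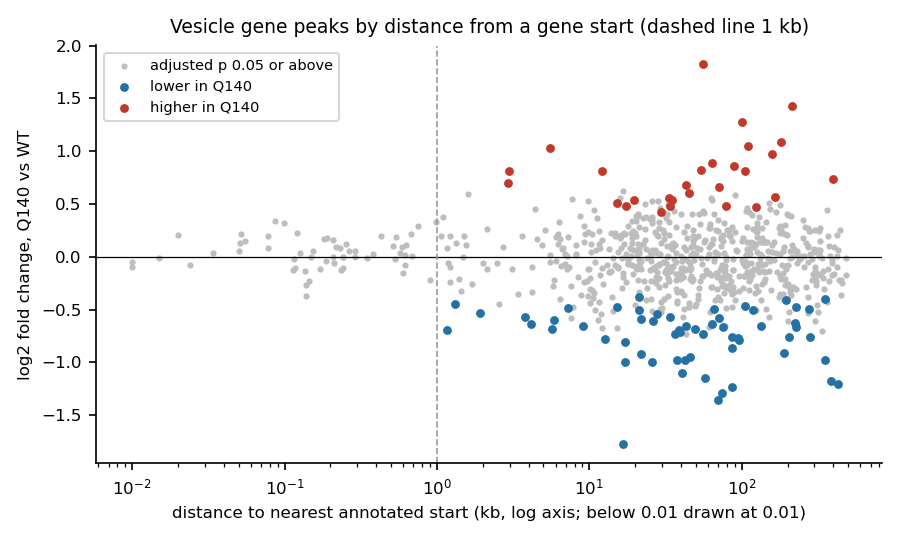
Log2 fold change in Q140 vs WT (y axis) of 777 vesicle gene peaks against their distance from the nearest annotated start (x axis, log scale in kb). Red and blue points passed the test, and all of them lie to the right of the dashed line at 1 kb.

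Female and male animals were compared for the Q140 effect itself. No vesicle gene peak differed (0 of 777, edgeR, adjusted p of 1.00 throughout, background 0% of all peaks), with 24 at an unadjusted p under 0.05, or 3.09% against 3.29% of all peaks, and 0 with DESeq2. The count was also 0 without Q140 F2, whose sex label is in doubt. The design has 3 animals a sex and genotype, so small differences between the sexes may pass unseen.

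Msh3KO vs WT asks what loss of Msh3 does on normal Htt. Of 777 vesicle gene peaks, 2 rose and 0 fell, or 0.257%, against 0.013% of all peaks, and both were at Sv2c. The count stayed at 2 without both Q140 F2 and Q140_Msh3KO M1. An intronic Sv2c peak 108.5 kb into the gene (chromosome 13, 96023633 to 96024453) held 6.71, 7.26 and 9.09 CPM in WT and 15.1, 28.1 and 29.6 in Msh3KO. It rose by 1.74 ± 0.13 (adjusted p = 5.1e-12), and the groups did not overlap. The other peak, 107.6 kb upstream (96240004 to 96240391), rose from 1.71 ± 0.217 to 3.54 ± 0.657 CPM, by 1.06 ± 0.20 (adjusted p = 0.0399). It missed the threshold in 15 alternative fits, among them those without any 1 of the 6 WT libraries, without Q140 F2, and without Msh3KO F1, F3, M1 or M2 (adjusted p up to 0.227).

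Sv2c and the targeted gene are neighbours on chromosome 13. The 21 Sv2c peaks lie 3.66 to 3.89 Mb from the Msh3 promoter. A targeted allele can carry flanking DNA of the strain in which it was made, so an effect of Msh3 loss and one of such flanking DNA cannot be told apart at Sv2c. Outside 20 Mb around Htt and Msh3, 0 of 756 vesicle gene peaks passed in Msh3KO vs WT with edgeR and with DESeq2. Of these 756, 30 had an unadjusted p under 0.05. With edgeR adjusted over the peaks outside these windows alone, 1 of all peaks passed, against 19 with all peaks kept. Both Sv2c calls lie inside the windows, and the 0 outside them is near the background.

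**Figure D4:**
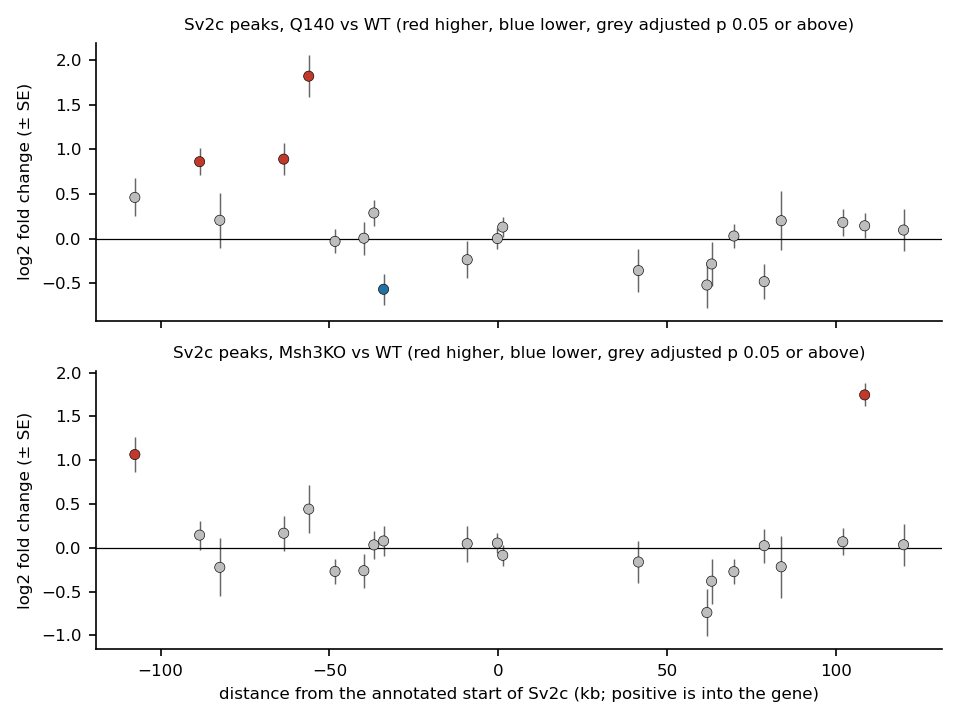
Log2 fold change ± SE (y axis) of each Sv2c peak against its distance from the annotated start in kb (x axis, positive into the gene), in Q140 vs WT (top) and Msh3KO vs WT (bottom). The 4 peaks that passed in the upper panel, 34.0 to 88.4 kb upstream, are not the 2 that passed in the lower panel.

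Q140_Msh3KO vs Q140 asks what loss of Msh3 does in animals that carry the expanded allele. Of 777 vesicle gene peaks, 3 rose and 1 fell, or 0.515%, against 0.529% of all peaks. Without both Q140 F2 and Q140_Msh3KO M1, 3 vesicle gene peaks passed, and the calls over all peaks went from 773 to 199. The intronic Rims1 peak that was low in Q140 held 15.4, 24.3 and 30.4 CPM in Q140_Msh3KO, against 10.3, 13.2 and 17.2 in Q140, and rose by 0.77 ± 0.14 (adjusted p = 0.00328). Only the lowest Q140_Msh3KO animal fell within the range of Q140. The Unc13c peak at 73580901 held 2.16, 3.24 and 3.94 CPM, against 1.06, 1.40 and 1.83, and rose by 1.10 ± 0.20 (adjusted p = 0.00293) without overlap. Its mean in Q140_Msh3KO was 3.14 ± 0.654 CPM, beside 3.21 ± 0.464 in WT and 3.37 ± 0.362 in Msh3KO.

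Both remaining calls were at Sv2c. The peak 56.1 kb upstream, high in Q140, held 2.15, 2.63 and 4.30 CPM in Q140_Msh3KO, against 4.35, 4.91 and 7.14 in Q140, and fell by 0.86 ± 0.21 (adjusted p = 0.0373). It missed the threshold in 9 alternative fits, among them those without Q140 F2 (adjusted p = 0.0745), without Q140_Msh3KO M1 (0.120) and without both (0.192). The peak 108.5 kb into the gene rose by 1.45 ± 0.13 (adjusted p = 9.6e-10), as between Msh3KO and WT, from 8.43 ± 0.551 to 23.1 ± 2.38 CPM. The Sv2b peak 16.7 kb upstream, at 3.97 ± 1.14 CPM in Q140_Msh3KO and 1.91 ± 0.687 in Q140, missed the threshold (0.98 ± 0.25, adjusted p = 0.0611) but passed in 10 alternative fits, among them DESeq2 (0.0228), 3 other settings and 6 fits without 1 library (WT F3, Q140 M3, Msh3KO F2 or F3, Q140_Msh3KO F3 or M3).

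Q140_Msh3KO vs Msh3KO measures the expanded allele where Msh3 is missing, in animals none of which enter Q140 vs WT. No vesicle gene peak passed (0 of 777 with edgeR and with DESeq2, background 0.116%), and 54, or 6.95%, had an unadjusted p under 0.05, against 7.68% of all peaks. Without both Q140 F2 and Q140_Msh3KO M1, 1 passed, at Syt1. Of the 28 peaks that rose in Q140 vs WT, 27 also had a positive log2 fold change here (96.4%, against 88.1% of all higher peaks), and their median went from 0.72 to 0.3. Of the 59 that fell, 53 also had a negative one (89.8%, against 92.3% of all lower peaks), and their median went from -0.69 to -0.2. The effect was smaller at 27 of 28 risen and 59 of 59 fallen peaks, against 6074 of 6142 and 8805 of 8924 over all peaks. These peaks were chosen for their size in the first comparison, so some of the shrinkage is built into the choice. For all peaks chosen in the same way the medians went from 0.74 to 0.25 and from -0.68 to -0.26, so the vesicle genes moved much as all changed peaks did. Among the 690 vesicle gene peaks that did not pass in Q140 vs WT, 58.8% had the same sign in both, against 58.6% of such peaks overall.

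Both effects are given side by side for single peaks, and differences between peaks were not tested. At the Rims1 peak the log2 fold change was -0.98 ± 0.14 with Msh3 and -0.20 ± 0.14 without, and at the Unc13c peak at 73580901 it was -1.18 ± 0.20 and -0.14 ± 0.18. At the Syt17 peak it was -1.24 ± 0.18 and -0.68 ± 0.18, at the Cadps peak 214.5 kb upstream 1.43 ± 0.24 and 0.74 ± 0.24, and at the lower Stxbp5l peak -1.10 ± 0.24 and -0.74 ± 0.24. The difference between both effects is the interaction of Q140 and Msh3KO, which 0 of 777 vesicle gene peaks passed with edgeR and with DESeq2 (background 0.0226%, smallest adjusted p of 0.155). At an unadjusted p under 0.05 there were 70, or 9.01%, against 7.32% of all peaks. Without Msh3KO F3 the Rims1 peak passed (adjusted p = 0.0432), and without both Q140 F2 and Q140_Msh3KO M1 the count was 0.

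**Figure D5:**
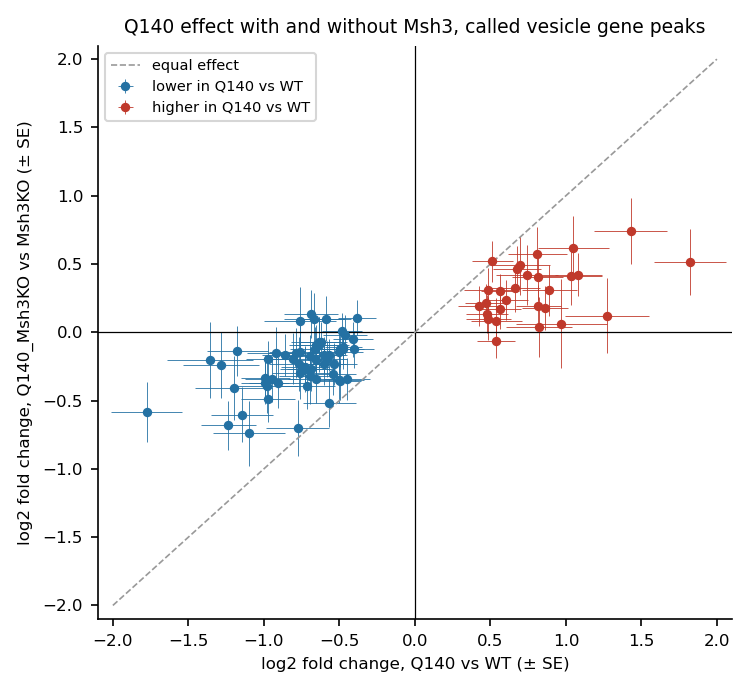
Log2 fold change ± SE in Q140_Msh3KO vs Msh3KO (y axis) against that in Q140 vs WT (x axis) for the 28 higher (red) and 59 lower (blue) vesicle gene peaks. Nearly all points lie between the zero line and the dashed line of equal effects, and 27 red and 53 blue points keep their side of zero.

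Q140_Msh3KO vs WT gives what is left of the difference from wild type. It shares its animals with the comparisons above, so the values are given side by side only. Of 777 vesicle gene peaks, 4 rose and 1 fell, or 0.644%, against 0.525% of all peaks. The count stayed at 5 without both Q140 F2 and Q140_Msh3KO M1. The Syt10 peak 181.6 kb upstream held 7.17, 9.49 and 12.0 CPM in Q140_Msh3KO, against 3.55, 5.25 and 7.30 in WT, and rose by 0.75 ± 0.16 (adjusted p = 0.0184). The Syt17 peak held 2.87, 3.98 and 4.21 CPM, against 5.07, 6.31 and 7.75, and fell by 0.80 ± 0.18 (adjusted p = 0.0223) without overlap. The Cadps peak rose by 1.06 ± 0.25 (adjusted p = 0.0367), with 2.71, 3.13 and 6.30 CPM and overlap with WT. The remaining pair were the Sv2c peaks at 96023633 and 96240004, at 1.59 ± 0.13 and 0.93 ± 0.21. These counts depend on single libraries, with 1 peak past the threshold without Q140_Msh3KO M3, 2 without WT M1, 3 without WT F1, F3 or M3, and 8 without Msh3KO F2 or F3. The Syt10, Syt17 and Cadps calls were lost in 3, 6 and 7 fits that leave out 1 library, with adjusted p up to 0.0851, 0.0738 and 0.173.

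A second list held other genes of the vesicle cycle, such as transmitter transporters, further SNARE regulators and the endocytic dynamins, and 58 genes of it had peaks. Of its 414 tested peaks, 5 rose (1.21%) and 24 fell (5.8%) in Q140 vs WT, or 7% in all, below the 10.3% of all peaks (4.2% higher and 6.11% lower). The first by p was an intronic peak of Svop, encoding a vesicle protein related to SV2 (chromosome 5, 114082624 to 114083084). It held 1.76, 1.93 and 2.76 CPM in WT and 3.66, 7.26 and 8.15 in Q140, and rose by 1.67 ± 0.20 (adjusted p = 8.8e-08). It was also the 1 peak of the list that changed in Q140_Msh3KO vs Q140, where it fell by 0.93 ± 0.18 to 3.62 ± 1.23 CPM (adjusted p = 0.005). Peaks of Dnm3 (dynamin 3) and Rimbp2 rose by 1.02 ± 0.24 and 0.59 ± 0.18. The Rimbp2 call (adjusted p = 0.0305) was lost without WT F1, WT M2, WT M3 or Q140 M2 (adjusted p = 0.0520 to 0.110). An intronic peak of Stx3 fell by 1.07 ± 0.21, the promoter peak of Doc2g by 0.69 ± 0.14 and a peak of Rab27b by 0.76 ± 0.18. A peak annotated to Slc18a3, the vesicular acetylcholine transporter of cholinergic interneurons, fell by 0.59 ± 0.12, from 16.4 ± 2.93 to 10.8 ± 0.708 CPM, and lies in an intron 37.5 kb from that start. In each of Msh3KO vs WT, Q140_Msh3KO vs Msh3KO, Q140_Msh3KO vs WT and the interaction, 0 of the 414 passed with edgeR and with DESeq2. Over all peaks 0.013%, 0.116%, 0.525% and 0.0226% passed with edgeR, in that order. An unadjusted p under 0.05 was found at 14, 20, 26 and 26 of the 414, and at 3.34%, 7.68%, 9.82% and 7.32% of all peaks.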

How the data were processed

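ATAC-seq was performed on NeuN-positive striatal nuclei of 24 animals, per the labels' protocols. The authors deposited 1 table of raw read counts for 147020 peaks, each with its position, distance to the nearest annotated start, class and gene symbol, per the file headers. The submitters' processing notes name BWA, SAMtools, Picard, MACS2, featureCounts and GRCm38. For their versions, read filters, duplicate handling and any shift of cut sites nothing is given in the sources used here, and reads outside peaks cannot be counted here. Peaks were merged over libraries, so a region open in 1 genotype can be diluted. All 24 count columns were used. A symbol was missing for 281 peaks.

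The tests used edgeR 4.0.16 (R 4.3.3). After TMM scaling, 146155 peaks passed filterByExpr at a count minimum of 10, and a robust quasi-likelihood model of genotype and sex was fitted to all 24 libraries. P-values were adjusted by Benjamini-Hochberg over all tested peaks at 0.05. SE is the log2 fold change over the square root of F. CPM are given as mean ± SD over 6 animals. The interaction is the Q140 effect with Msh3 minus that without. In data simulated for Q140 vs WT on 146155 peaks, 68% of 100 peaks changed 2-fold and 13% of 100 changed 1.5-fold were recovered. No other peaks were changed there, while 15066 passed in the real data. The adjusted threshold thus asked for a smaller p in the simulated data, and these shares may be too low for the real comparison. Scaling by total counts moved the median log2 fold change over all peaks by at most 0.039.

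The 46 genes and all lists were chosen with earlier results of these data known. Named peaks were, per comparison, the called peak of smallest p of each gene up to 30 genes, all called peaks where there were 30 or fewer, the highest promoter peak of each gene, and 4 higher and 4 lower peaks of the second list, of which 1 is not reported here. Other called peaks of a named gene are given as values only and were chosen after they were seen. Animals are separate by the labels. Over 60 pairs of same-genotype libraries, chi-square per peak was 1.33 to 8.8, so each pair differed by more than counting noise. Alternatives were DESeq2 1.42.0, other scalings and filters, no sex term, a replicate block, only the groups compared, libraries left out, and peaks by class or by distance from Htt and Msh3. Bases at peak centres had been planned, but no genome of the build was used here. RefSeq windows before gene starts are shown instead, limited to those outside the gene's span. Genes were taken in order of smallest p in Q140 vs WT where such a window overlapped a peak of the gene. Syt4, on chromosome 18, was passed over in that order.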

Additional observations from a re-analysis of the deposited data

Results flagged for a closer look

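In groups of 6 animals, the highest or lowest animal was set against the others at each named peak. In 13 of 232 groups its gap to the next animal, divided by the whole range, was above Dixon's critical value for 6 values, and chance gives about 1 in 20. Msh3KO F2, the library of lowest total count, had 2 of the 13 and 11 other libraries had 1 each.

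Among changed peaks, WT F3 held 13.68 CPM at the intronic Pclo peak, against 9.874 to 10.99 in the other WT animals. At the Cadps peak 214.5 kb upstream, WT F2 held 3.225 CPM, against 1.14 to 1.777, and Q140_Msh3KO F3 held 6.303, against 2.714 to 3.735. Without Q140_Msh3KO F3 the adjusted p of that peak in Q140_Msh3KO vs WT was 0.173. Msh3KO M3 held 1.19 CPM at the rising Syn3 peak, against 2.312 to 2.879. At the Unc13a peak Msh3KO F1 held 19.51 CPM, against 26.3 to 29.63. Msh3KO F2 held 0.6643 CPM at the lower Stxbp5l peak, against 2.994 to 3.757, and Msh3KO F3 held 17.88 at the Bsn peak, against 10.85 to 13.47.

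Among promoter peaks, Q140 F2 held 44.69 CPM at Rims2, against 34.49 to 38.05 in the other Q140 animals, and Q140 M3 held 40.35 at Snap25, against 29.16 to 32.91. Q140_Msh3KO F1 held 11.99 CPM at Syt12, against 7.327 to 8.941. At Syt13, Q140 M1 held 7.898 CPM, against 5.312 to 6.136, and Msh3KO F2 held 11.51, against 4.729 to 7.08. Q140 M2 held 9.681 CPM at Syt2, against 5.322 to 6.893.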

How the results depend on the processing

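No result reversed its direction. In Q140 vs WT the 87 calls stayed between 71 (without WT F3 or without Q140 M2) and 96 when 1 library was left out, and between 82 and 99 under the other settings, except that promoter peaks alone gave 0. Of the 87, 54 passed in all 24 fits without 1 library. DESeq2 shared 82 of its 83 calls. Of the 2 calls in Msh3KO vs WT, 1 was made with scaling by total counts, with a count minimum of 30, with only the groups compared and with the replicate block, 0 outside 20 Mb of Htt and Msh3 and 0 among promoter peaks, and 1 to 2 without 1 library. The 4 calls in Q140_Msh3KO vs Q140 became 8 with a count minimum of 30, 2 outside these windows and 0 among promoter peaks, and 3 to 6 without 1 library. The 0 in Q140_Msh3KO vs Msh3KO became 1 with the minimum of 30 (Syt14) and 1 without both libraries that stood apart (Syt1), and 0 to 2 without 1 library (Syt14 and Syt17 without Msh3KO F2). The 5 in Q140_Msh3KO vs WT became 8 with DESeq2, 8 with the minimum of 30, 10 with only the groups compared, 3 outside the windows and 0 among promoter peaks, and 1 to 8 without 1 library. The interaction gave 0 to 1, and the sex difference 0 in all. With the minimum of 30, the second list gave 3 calls in place of 1 in Q140_Msh3KO vs Q140, and 1 in place of 0 in both Q140_Msh3KO vs Msh3KO and Q140_Msh3KO vs WT. A higher minimum tests fewer peaks. The cause of these shifts was not tested.

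Animals were not paired by label number in the main model, and whether libraries that share a number are alike was not tested. Over 36 same-number pairs the correlation of deviations ran from -0.329 to 0.511 (14 above 0.1). Its median was 0.0643, above the 0.0101 for 72 other pairs of the same sex, and 10 of 24 libraries correlated best with their own number. The labels also give each animal a hyphenated number whose first part some animals of different genotypes share. Its meaning is not given in the sources used here, and it was not used. With the replicate block the calls were 85, 1, 4, 0 and 6 in the order of comparisons above, and 0 for the interaction. With a median of 27 counts a peak, changes of 1.5-fold were mostly missed in simulated data. Few peaks were changed in those data, so the adjusted threshold was stricter than in the real Q140 vs WT comparison. The share missed there was not measured, and a peak that did not pass may still differ.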
